A study of Homo sapiens with 3 samples.

Results

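The enzymes that make and break down polyamines, with the proteins that set the amount of the first of these enzymes, were examined as 10 genes: ODC1, AMD1, SRM, SMS, SAT1, SMOX, PAOX, OAZ1, OAZ2 and AZIN1. They were chosen by name, and each was taken from probe sets whose platform annotation named that gene alone, out of 18417 genes measured in this way. All 10 had exactly 1 such probe set, and all 10 lay above the lower limit set on mean signal (log2 5.12), so all were among the 12892 genes tested. RNA came from LNCaP, an established cell line from a lymph node metastasis of prostate carcinoma that responds to androgens. The growth medium was RPMI1640 with serum, siRNA was delivered by RNAiMAX, and cells were harvested 72 hours later. The control group (1 array) received a negative control siRNA, and the other group (2 arrays, 1 per siRNA) received siSE1 or siSE2, both aimed at the SLC45A3-ELK4 chimeric transcript. No other treatment is named in the labels. On the siSE2 array the transfection field of the labels says siSE1, while its title says siSE2; the title was followed, and if the field is right both arrays carry 1 siRNA. Separate cultures are not mentioned, so the p-values reflect array-to-array spread that may be technical. That spread comes from siSE1 against siSE2, so by the titles it also holds any difference between the siRNAs.

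Putrescine, spermidine and spermine are small positively charged amines that bind nucleic acids and that growing cells need. Ornithine decarboxylase makes putrescine from ornithine, and spermidine synthase and spermine synthase then add aminopropyl groups that come from decarboxylated S-adenosylmethionine. Breakdown starts with acetylation or with direct oxidation of spermine, antizymes send ornithine decarboxylase to the proteasome, and antizyme inhibitor ties up antizymes. Prostate epithelium makes polyamines in large amounts and secretes spermine into the seminal fluid, which gives these cells a high demand for the pathway.

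None of the 10 genes passed the test of the siRNA arrays against the control array. SMS, the spermine synthase gene, OAZ2, an antizyme gene, AZIN1, the antizyme inhibitor gene, and SAT1, the acetyltransferase gene of polyamine breakdown, read lower on both siRNA arrays, by 0.19 to 0.48 on the log2 scale for the mean of both siRNAs. The remaining genes, ODC1, AMD1, SRM, SMOX, PAOX and OAZ1, which is also an antizyme gene, had mean differences between 0.02 and 0.11. Those of AMD1 and PAOX turned to -0.01 and -0.02 when array medians were made equal. The question put to these data was whether polyamine gene expression differs when the chimera is targeted, and the differences had standard errors of 0.14 to 0.16 on the log2 scale. The arrays report RNA of whole cultures, so fewer cells with a transcript and less of it per cell cannot be told apart.

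The upstream stretches of 4 members are shown because these members bear on the contrasts described here. SMS and OAZ2 were lowest against the control, and SRM, whose product works in the step before spermine synthase, did not read lower. SAT1 was the member whose window held the longer ETS-type string searched for, CCGGAAG. ELK4, a parent of the targeted chimera, belongs to the ETS family of factors, which bind a GGAA core, and MYC with its partner MAX binds the E-box CACGTG, for which ODC1 is a textbook target. RefSeq sequences (GRCh38.p14) of the 250 bases before annotated starts were found for 7 of the 10 genes, in 10 windows, and were searched on both strands for CACGTG and for the longer ETS-type string CCGGAAG, which do not overlap. Each line below gives a window 5′ to 3′ on the gene's own strand, with matches in capitals: SMS at chrX:21940459-21940708 (plus strand), OAZ2 at chr15:64703282-64703531 (minus), SRM at chr1:11060019-11060268 (minus) and SAT1 at chrX:23782923-23783172 (plus).
SMS: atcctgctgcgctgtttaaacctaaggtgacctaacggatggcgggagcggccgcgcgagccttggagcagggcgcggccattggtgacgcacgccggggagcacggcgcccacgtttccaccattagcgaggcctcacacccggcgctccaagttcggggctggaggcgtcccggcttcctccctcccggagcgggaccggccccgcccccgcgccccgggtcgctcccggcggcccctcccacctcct
OAZ2: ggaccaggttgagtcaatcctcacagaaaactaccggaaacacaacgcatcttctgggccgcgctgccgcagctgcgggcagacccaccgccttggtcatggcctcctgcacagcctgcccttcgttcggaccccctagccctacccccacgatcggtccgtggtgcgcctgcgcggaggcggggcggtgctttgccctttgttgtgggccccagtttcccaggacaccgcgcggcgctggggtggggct
SRM: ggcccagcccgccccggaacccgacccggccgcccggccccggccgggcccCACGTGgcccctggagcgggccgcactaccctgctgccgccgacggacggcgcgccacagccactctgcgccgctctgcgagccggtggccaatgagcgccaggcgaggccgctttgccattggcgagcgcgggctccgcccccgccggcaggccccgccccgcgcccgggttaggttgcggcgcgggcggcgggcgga
SAT1: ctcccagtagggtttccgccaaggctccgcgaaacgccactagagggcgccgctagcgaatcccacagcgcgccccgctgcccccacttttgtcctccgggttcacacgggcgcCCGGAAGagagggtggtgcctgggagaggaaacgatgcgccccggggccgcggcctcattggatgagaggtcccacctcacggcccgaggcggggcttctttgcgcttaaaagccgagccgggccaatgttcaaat

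CACGTG stood in the SRM window, beginning 199 bases before the start, and in 1 of the 2 ODC1 windows, beginning 29 bases before the start. CCGGAAG stood in the SAT1 window, beginning 136 bases before the start. Neither string was found in the windows of SMS, OAZ2, OAZ1 and AMD1. The shorter core GGAA, read on either strand, does occur in every member window: those of SMS, OAZ2, SRM, AMD1, OAZ1, ODC1 and SAT1. The longer string therefore does not single out SAT1 for ETS-type sequence in general. Over all 35116 RefSeq windows of this length, 6.34% held CACGTG and 8.52% held CCGGAAG. These shares were not matched for base composition: the median share of G and C was 58.0% over all windows, and the member windows held 66.4% (SAT1) to 82.4% (ODC1). A match describes letters and is no evidence of binding, and its absence says only that these letters are not in the window.

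The 3 arrays had medians of 5.80 (control), 5.84 (siSE1) and 5.84 (siSE2). The label of the cells was checked against markers: all 9 luminal prostate epithelial markers measured lay above the lower limit, among them KLK3 (10.04 with the control siRNA, 9.59 with siSE1 and 9.71 with siSE2) and KRT8 (10.24, 10.73 and 10.61), and 0 of them passed the test. ACP3, the prostatic acid phosphatase gene, was the luminal marker at least 1.5-fold from the control with both siRNAs, at 6.39, 7.04 and 7.26 (log2 0.76 ± 0.15; limma, adjusted p = 0.0569). PTPRC, the common leukocyte antigen gene, read 3.17 to 3.22 and KRT5, a basal keratin gene, 4.92 to 5.21, both with means below the limit. Above it lay 3 of 5 basal, 6 of 9 stromal and 3 of 6 blood cell markers, and 0 of these passed. The stromal markers ACTA2, COL1A1 and VIM read 8.11, 6.94 and 6.89 on the control array, and the blood cell marker CD68 read 7.3. CD68 and COL1A1 were picked after their values were seen. The low levels of PTPRC and KRT5 thus do not stand for all basal, stromal and blood cell markers. LYZ, the lysozyme gene of myeloid and secretory cells, read 4.41, 6.09 and 5.11, higher with both siRNAs by at least 1.5-fold (log2 1.19 ± 0.31, 2.28-fold; limma, adjusted p = 0.0989). The basal markers ITGB4 and LAMB3 differed by 0.21 ± 0.14 and 0.24 ± 0.14, and the stromal markers ACTA2 and VIM by -0.47 ± 0.16 and -0.25 ± 0.15. The median differences of the basal, stromal and blood cell lists were 0.21, 0.06 and 0.30, and the mean levels ran from 5.31 to 5.60 (basal), 5.37 to 5.39 (stromal) and 4.70 to 5.08 (blood) over the arrays, with the control array lowest or level with the lowest in each. Their part in the polyamine values was not tested. SLC45A3, a parent gene, read 9.66 on the control array against 9.14 and 9.27 with the siRNAs, and ELK4 read 8.50 against 8.45 and 8.20. Neither passed (limma, adjusted p = 0.154 and 0.582), and probe sets of the parent genes do not resolve the chimeric junction.

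Over all genes tested, 0.248% were called higher and 0.714% lower with the siRNAs (limma, adjusted p under 0.05), and among the polyamine genes 0 of 10 were called in either direction. By the size rule of at least 1.5-fold in the same direction with both siRNAs, which is no test, 0.582% of all genes stood higher and 1.53% lower, against 0 of 10 polyamine genes each way. At an unadjusted p under 0.05, 0 of the 10 were higher and 2 were lower, SMS and OAZ2, against 6.46% and 11.3% of all genes. Both siRNA arrays lay above the control array for 5 of the 10 and below it for 4, against 36.4% and 41.7% of all genes, and AMD1 lay on both sides. At these small numbers the shares do not set the 10 genes apart from the rest. Their median difference was 0.03 on the log2 scale, with -0.02 for siSE1 and 0.05 for siSE2, beside -0.02, -0.02 and -0.01 over all genes tested. The siSE1 and siSE2 differences share the control array, so their signs are not independent of each other.

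**Figure D1:**
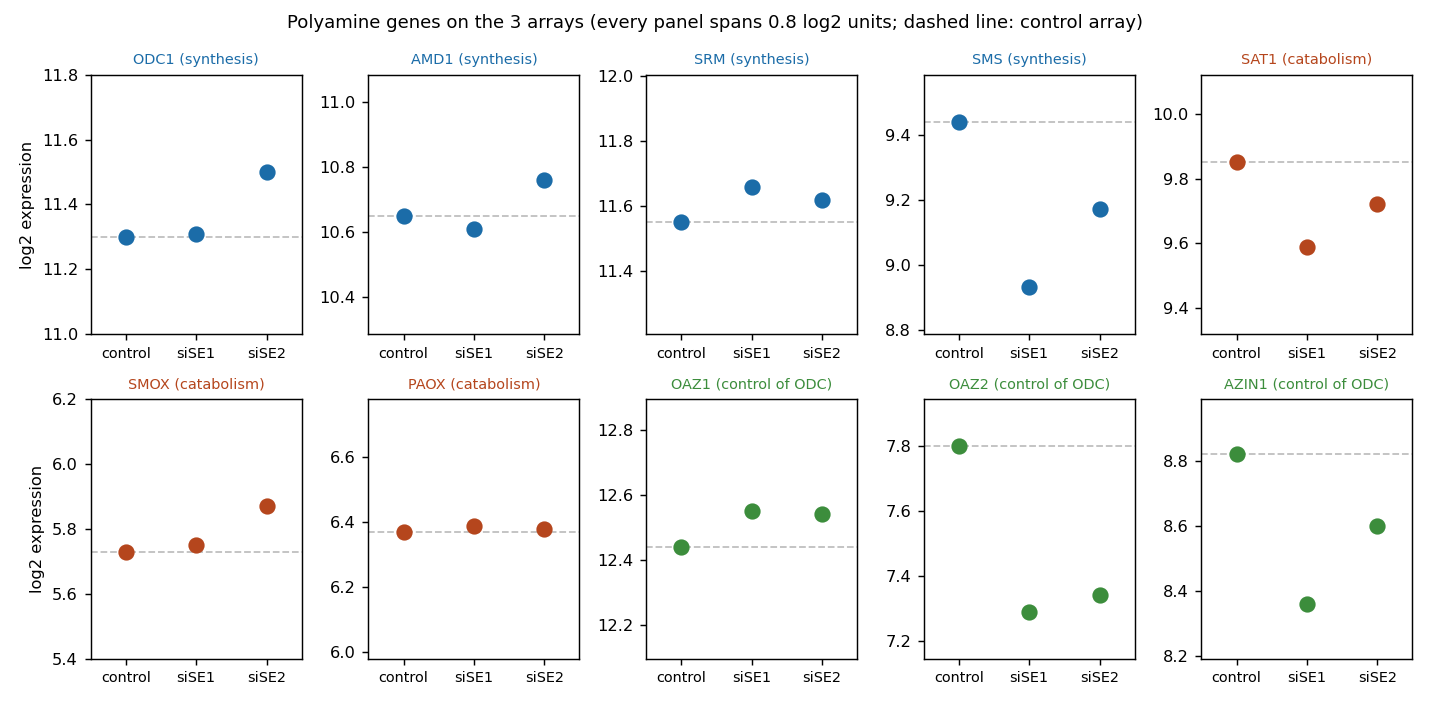
Log2 expression (vertical axis) of the 10 polyamine genes on the control, siSE1 and siSE2 arrays, 1 point per array, with the control level as a dashed line and the same span in each panel. SMS, SAT1, OAZ2 and AZIN1 lie below the control on both siRNA arrays, while PAOX reads 6.37, 6.39 and 6.38.

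Among the synthesis enzymes, ODC1 encodes ornithine decarboxylase, the first and rate-limiting step. It read 11.30 with the control siRNA, 11.31 with siSE1 and 11.50 with siSE2. The siSE1 value sat on the control value and the siSE2 value alone was higher, so the gap between the siRNA arrays (0.19) exceeded the mean difference of 0.10 ± 0.15 (SE, n = 2 against 1; limma, adjusted p = 0.767). Its 95% interval, unadjusted for the number of genes, ran from -0.24 to 0.44, or 84.9% to 135% of the control level.

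AMD1 encodes S-adenosylmethionine decarboxylase, which supplies the aminopropyl donor. It read 10.65 with the control siRNA, 10.61 with siSE1 and 10.76 with siSE2. Its siRNA arrays lay on either side of the control, and the mean difference was 0.03 ± 0.15 (limma, adjusted p = 0.928). SRM, the spermidine synthase gene, read 11.55, 11.66 and 11.62 in the same order. Both siRNA values were slightly above the control and close to each other (gap 0.03), with a mean difference of 0.09 ± 0.14 (limma, adjusted p = 0.769).

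SMS, on the X chromosome, was the member of the synthesis group that differed most. It read 9.44 with the control siRNA, 8.93 with siSE1 and 9.17 with siSE2. Both siRNA values lay below the control, the siSE1 value further, with differences of -0.51 and -0.27 and a gap of 0.24 between the siRNA arrays. On average this left 76.1% of the control level, with a 95% interval of 59.7% to 97.1% (log2 -0.39 ± 0.16, from -0.74 to -0.04). The interval left out no change, but the test over all genes was not passed (limma, unadjusted p = 0.0319, adjusted p = 0.232), and 8.87% of the genes tested had a lower difference.

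Set against SRM, the gene of the preceding aminopropyl transfer, SMS stood relatively lower within each siRNA array. The log2 difference SRM minus SMS was larger than on the control array by 0.62 with siSE1 and 0.35 with siSE2, a mean of 0.49 that exceeded the gap of 0.27 between the siRNA arrays. Such a within-array difference does not move when a constant is added to an array. It was not tested here, neither SRM nor SMS passed on its own, and the 4 pairs of related proteins described in this way were picked after their values were seen.

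Breakdown of polyamines was represented by SAT1, SMOX and PAOX. SAT1, also on the X chromosome, encodes spermidine/spermine acetyltransferase, whose products are exported or oxidised. It read 9.85 with the control siRNA, 9.59 with siSE1 and 9.72 with siSE2. Both siRNA values were lower than the control, by 0.26 and 0.13, and the mean difference of -0.19 ± 0.15 had an interval from -0.52 to 0.13 that included 0 (limma, adjusted p = 0.520).

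SMOX encodes spermine oxidase, which turns spermine back into spermidine and releases hydrogen peroxide. This dim gene read 5.73 with the control siRNA, 5.75 with siSE1 and 5.87 with siSE2. All 3 values were near the lower limit of 5.12, and the mean difference was 0.09 ± 0.14 (limma, adjusted p = 0.795). PAOX, which encodes the peroxisomal oxidase of acetylated polyamines, read 6.37, 6.39 and 6.38. These 3 values spanned less than the SE of 0.14, and the mean difference was 0.02 (limma, adjusted p = 0.953), within an interval of -0.29 to 0.34. The pair SMOX minus PAOX changed by 0.07 on average, less than its gap of 0.13 between the siRNA arrays.

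**Figure D2:**
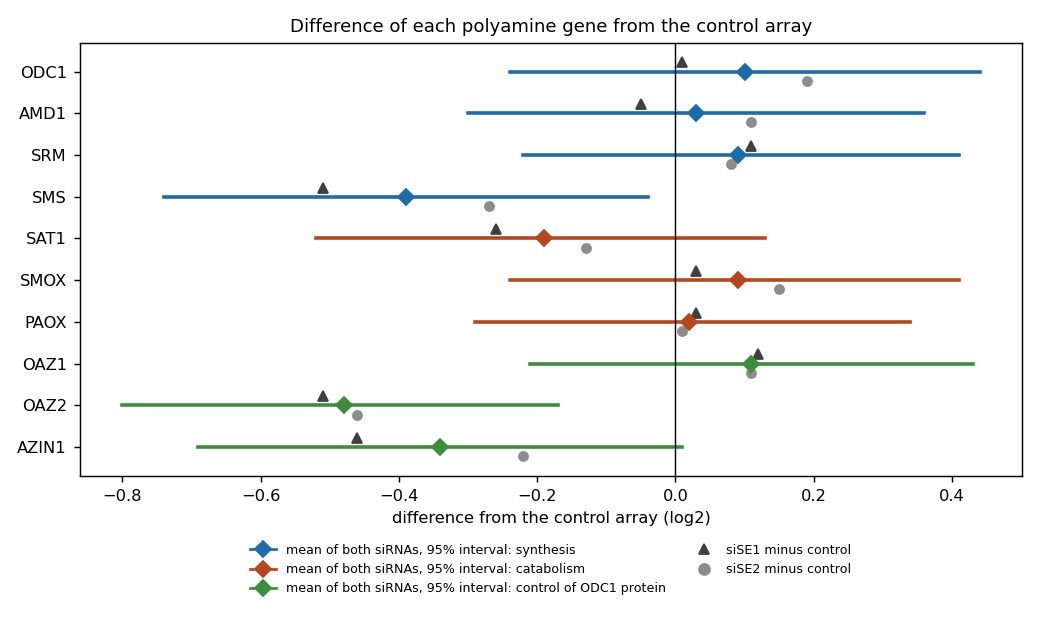
Difference from the control array (log2, horizontal axis) for each polyamine gene; diamonds are the mean of both siRNAs with its unadjusted 95% interval from limma, triangles siSE1 and circles siSE2. The intervals of SMS (-0.74 to -0.04) and OAZ2 (-0.80 to -0.17) leave out 0, and the other 8 include it.

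Of the 3 genes that act on ornithine decarboxylase protein 0 passed, and their mean differences ran from -0.48 to 0.11. OAZ1 encodes the main antizyme, whose translation needs a frameshift that polyamines stimulate. It read 12.44 with the control siRNA, 12.55 with siSE1 and 12.54 with siSE2. Both siRNA values lay above the control by about as much (0.12 and 0.11), but the mean difference of 0.11 ± 0.14 was within the error (limma, adjusted p = 0.722). As an mRNA level this says nothing of how much antizyme protein was made.

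OAZ2 encodes a second antizyme of wide expression. It read 7.80 with the control siRNA, 7.29 with siSE1 and 7.34 with siSE2. Both siRNA arrays lay well below the control and close to each other, with differences of -0.51 and -0.46 and a gap of 0.05. The siRNA arrays averaged 71.5% of the control level, with a 95% interval of 57.4% to 89.2% (log2 -0.48 ± 0.14, from -0.80 to -0.17). Of the 10 genes OAZ2 had the smallest p, but it did not pass over all genes (limma, unadjusted p = 0.00716, adjusted p = 0.127), and 5.26% of the genes tested had a lower difference. Under the alternative settings its adjusted p ran from 0.112 to 0.221.

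OAZ1 minus OAZ2 was larger than on the control array by 0.62 with siSE1 and by 0.56 with siSE2, a mean of 0.59 with a gap of 0.06 between the siRNA arrays. Neither gene passed on its own, and the pair difference was not tested. This was the widest of the 4 pair changes.

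AZIN1 encodes antizyme inhibitor, a relative of ornithine decarboxylase with no enzyme activity that binds antizyme more tightly than the enzyme does. It read 8.82 with the control siRNA, 8.36 with siSE1 and 8.60 with siSE2. Both siRNA values were below the control, by 0.46 and 0.22, and the siSE1 value was again the lower. The mean difference of -0.34 ± 0.16 corresponded to 79.0% of the control level, with an interval of 61.9% to 101% that included no change (limma, adjusted p = 0.296). ODC1 minus AZIN1 was larger than on the control array by 0.47 with siSE1 and 0.41 with siSE2, a mean of 0.44 against a gap of 0.06.

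Spread between the siRNA arrays was itself uneven among the 10 genes. It ran from 0.01 for PAOX and OAZ1 to 0.24 for SMS and 0.25 for AZIN1, beside a median of 0.12 over all genes tested. In 7 of the 10 genes the siSE1 value was below the siSE2 value, against 51.0% of all genes tested. The mean difference from the control was larger than this spread in 7 genes, against 59.5% of all genes tested, and not in ODC1, AMD1 and SMOX. With 1 array per siRNA, a difference between siSE1 and siSE2 cannot be tested.

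**Figure D3:**
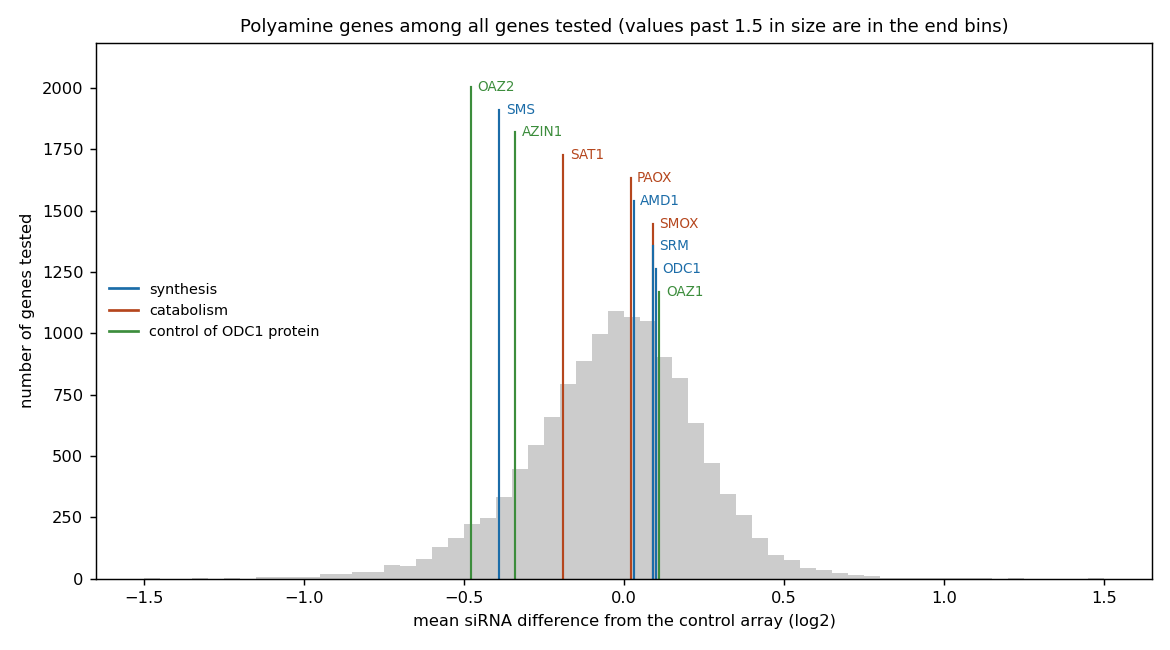
Number of genes tested (vertical axis) by mean siRNA difference from the control array (log2, horizontal axis), with a line at each polyamine gene's difference; line heights carry no value. OAZ2 (-0.48), SMS (-0.39) and AZIN1 (-0.34) lie in the lower flank, and 6 genes lie between 0.02 and 0.11, of which AMD1 and PAOX turn slightly negative with equal array medians.

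Around the core pathway 57 genes of 7 further lists were tested, and 1 of them, SLC7A5, passed, beside 0.248% called higher and 0.714% called lower over all genes. A single call among 57 genes does not set these lists apart. Among paralogs of the 10 genes, 0 of 3 tested members were called, and their median difference was -0.08. SAT2, a relative of SAT1, differed by -0.11 ± 0.14 and AZIN2, an antizyme inhibitor of brain and testis, by -0.06 ± 0.14.

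Genes that supply ornithine and arginine had a median of -0.09 over 9 tested members, with 0 called. Both siRNA arrays lay above the control for 4 of them and below it for 5, against 36.4% and 41.7% of all genes tested. SLC7A1, the main importer of arginine and ornithine into cells, read 9.44 with the control siRNA, 8.71 with siSE1 and 8.90 with siSE2. Both values were below the control, at 64.4% of its level on average, without passing over all genes (log2 -0.63 ± 0.15; limma, adjusted p = 0.0796). SLC25A15, which carries ornithine across the inner mitochondrial membrane, differed by -0.45 ± 0.15 (limma, adjusted p = 0.173).

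The methionine cycle and the salvage route, which make S-adenosylmethionine and recover methionine from the by-product of the aminopropyl transfers, had a median of -0.19 over 16 tested members. Of these 0 were called. On both siRNA arrays 9 lay below and 4 above the control, against 41.7% and 36.4% of all genes tested. ENOPH1, a salvage enzyme gene, read 8.50, 7.61 and 8.15, and its difference of -0.62 ± 0.21 came with a gap of 0.54 between the siRNA arrays (limma, adjusted p = 0.172). GOT1, an aspartate aminotransferase gene, differed by -0.44 ± 0.15 (limma, adjusted p = 0.184).

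Transport of polyamines and of the amino acids that feed them held the gene that fell. SLC7A5, the light chain of a large neutral amino acid exchanger that takes up methionine, read 9.08 with the control siRNA, 8.22 with siSE1 and 8.19 with siSE2. Both siRNA values were far below the control and almost equal, at 54.4% of its level with a 95% interval of 43.7% to 67.8% (log2 -0.88 ± 0.14; limma, adjusted p = 0.0326). With no filter on dim genes it did not pass (adjusted p = 0.107), and over the alternatives its adjusted p ran from 0.0249 to 0.107. SLC7A5 and its chaperone SLC3A2, which read 9.53, 9.05 and 9.09 without passing (limma, adjusted p = 0.140), were 2 of the 7 tested members; the list's median was -0.04. ATP13A3, a lysosomal and endosomal polyamine transporter gene, differed by 0.29 ± 0.14 and ATP13A2, its relative, by -0.02 ± 0.15. SLC3A2, ATP13A3 and ATP13A2 were picked after their values were seen.

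Spermidine also donates the side chain of hypusine, a modified lysine of the translation factor eIF5A. Of 3 tested genes of this step 0 were called, with a median of -0.16: the eIF5A paralog gene EIF5A2 differed by -0.37 ± 0.16 and DOHH, the hydroxylase gene, by -0.16 ± 0.14. The main eIF5A gene, EIF5A, had no probe set that named it alone and was not read. Genes of amine and aldehyde oxidation had a median of -0.24 over 7 tested members, of which 0 were called. On both siRNA arrays 5 lay below and 1 above the control, against 41.7% and 36.4% of all genes tested. AOC2, a copper amine oxidase gene, differed by -0.37 ± 0.14 and ALDH2, the mitochondrial aldehyde dehydrogenase gene, by -0.29 ± 0.14.

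Known regulators of the core genes had a median of 0.19 over 12 tested members, with 0 called. Both siRNA arrays lay above the control for 8 of them and below it for 1, against 36.4% and 41.7% of all genes tested. The list holds activators and repressors alike. MYC, which drives transcription of ODC1 and other genes of the pathway, read 10.13 with the control siRNA, 10.04 with siSE1 and 10.54 with siSE2. Its siRNA values lay on either side of the control, with a mean difference of 0.15 ± 0.20 (limma, adjusted p = 0.726). MYC was picked after its values were seen. MYCN differed by 0.49 ± 0.14 and KLF4, a zinc finger factor gene, by 0.52 ± 0.15, from control values of 5.20 and 5.52 near the lower limit (limma, adjusted p = 0.125 and 0.123).

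**Figure D4:**
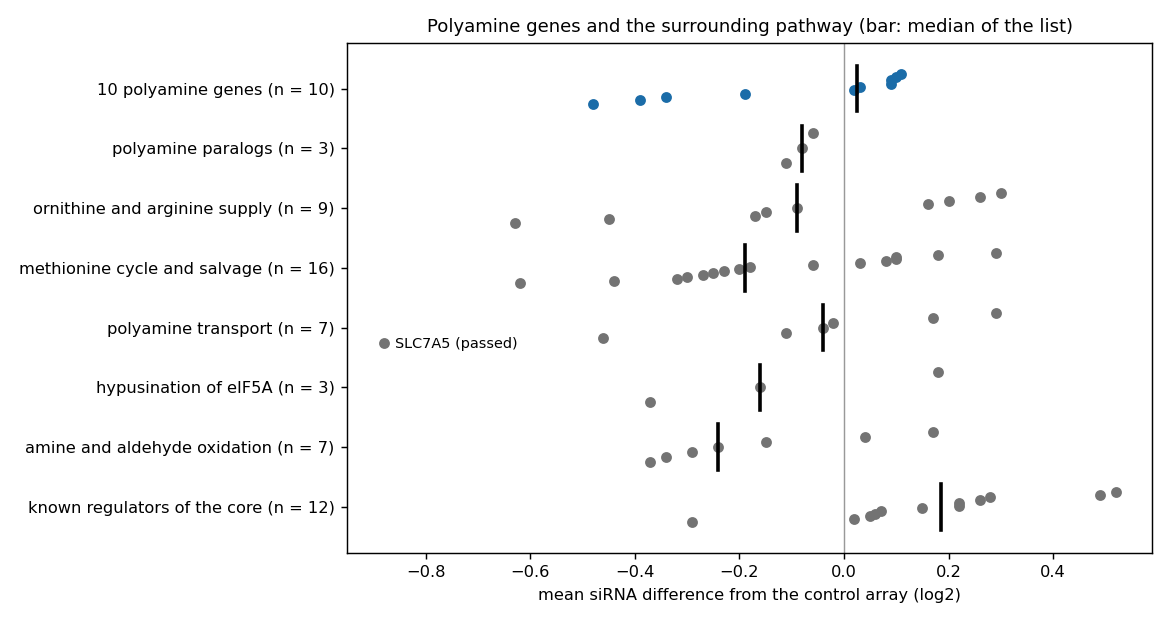
Mean siRNA difference from the control array (log2, horizontal axis) of each tested gene in the 10 polyamine genes and 7 further lists, 1 point per gene, with the list's median as a bar. SLC7A5 (-0.88) passed the test and the other points did not.

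Most genes of S phase and mitosis read lower on the siRNA arrays. Their median difference was -0.45 over 16 tested members, 15 of them below the control on both siRNA arrays, with 1 called lower and 0 higher, beside 41.7% below the control on both arrays and 0.714% called lower over all genes. MCM4, a subunit of the replicative helicase, fell to 54.5% of the control level (log2 -0.88 ± 0.15; limma, adjusted p = 0.0378); it did not pass with no filter or with a filter at the 50th percentile (adjusted p = 0.124 and 0.0503). MKI67, a proliferation marker gene, differed by -0.68 ± 0.15 without passing (limma, adjusted p = 0.0654). The part of proliferation in the polyamine values was not tested.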

How the data were processed

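Total RNA from 3 LNCaP samples was labelled with biotin by a whole-transcript kit and read on Affymetrix arrays, per the labels. The authors deposited 1 table of 33297 probe sets, for which the submitters' processing notes name Affymetrix Expression Console; its version and algorithm, and the genome build, were not given in the sources used here. The deposited values were taken to be log2 from their range (1.43 to 13.9). The annotation named 1 gene for 19460 probe sets, and 19429 of these matched a RefSeq table (GRCh38.p14, names only) by gene ID. Probe sets of a gene were averaged, and genes with a mean below the 30th percentile were left out. The siRNA group was compared with the control by limma 3.58.1 in R 4.3.3 (two-sided, Benjamini-Hochberg over 12892 genes, threshold 0.05). The fit has 1 residual degree of freedom, from the siRNA arrays, and assumes that the lone control array varies as they do; the number of arrays limits the precision. Tested on simulated data for this comparison (12892 genes), the fit recovered 97 of 100 genes changed by 1 and 100 of 100 changed by 2 on the log2 scale. Changes as small as those of the 10 members were not simulated, and the simulated control array varied as the siRNA arrays did. The members, lists, tests and alternatives were chosen with earlier results of these data known. Named are the 10 members, the parent genes and, per list, members that passed the test or the 1.5-fold rule, otherwise up to 2 with the largest smaller one of their siRNA differences; other names are marked, and KLK3, KRT8, PTPRC and KRT5 were picked as defining markers. Alternatives were 3 normalizations, 2 other filters, the highest probe set per gene, a variance prior with an intensity trend and leaving out each siRNA array.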

Additional observations from a re-analysis of the deposited data

How the results depend on the processing

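The count of polyamine genes called was 0 higher and 0 lower in all 7 refitted settings, with adjusted p from 0.112 to 0.995 (limma). Of 89 alternative values of the 10 genes 86 kept their sign and 3 did not: with equal array medians AMD1 was -0.01 and PAOX -0.02, and AMD1 was -0.05 without the siSE2 array (0.11 without siSE1). Leaving out a siRNA array leaves 1 array against 1, with no residual degree of freedom, so those are values without a test and give no counts. Over all genes, the 32 called higher became 63 with quantile normalization, 52 with an intensity trend, 21 with equal array medians, 15 with a 50th percentile filter and 1 with no filter. The 92 called lower became 20 and 0 with these last 2 filters. The cause was not tested. SMOX lay below the 50th percentile filter. Its signal of 5.73 on the control array was near the lower limit of 5.12.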
